A study of Rattus norvegicus with 8 samples.

Results

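The neuropeptide genes described here are Cort, Crh, Npy, Sst, Vip, Tac1, Penk, Cck and Pdyn, 9 of the 22459 genes and unnamed accessions tested. Every probe whose RefSeq accession, without its version, belongs to 1 of these symbols was used, which gave 12 of the 30367 probes on the array. Crh, Npy and Tac1 have 2 probes each and the other genes have 1. The genes were chosen with their responses on these arrays known, so their values are given as a description, and nothing is read from the calls that the fit across all genes gives them.

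The cells were primary neurons of rat cortex and hippocampus, taken from Sprague Dawley embryos at day E18 and treated after 7 days in culture. CAT-SKL is a form of catalase, which degrades hydrogen peroxide, carrying a peroxisomal targeting signal. ADDLs are soluble oligomers of amyloid beta. The 4 treated groups received 1 µM CAT-SKL for 24 h, 1 µM ADDL for 24 h, CAT-SKL for 24 h and then ADDL for 24 h (CAT-SKL+ADDL), or ADDL for 24 h and then CAT-SKL for 24 h (ADDL+CAT-SKL), the order being read from the names. Each group had 2 arrays, and on all 8 arrays treated RNA was in the Cy5 channel and vehicle RNA in the Cy3 channel, with no dye swap. Values are log2 ratios of Cy5 over Cy3, so 0 means equal signal and a positive value means more in the treated cells. A dye effect of a probe therefore cannot be told apart from a treatment, and vehicle has no array of its own. The 2 CAT-SKL+ADDL arrays differed by no more than the duplicate spots of a probe: the differences of first and second spots correlated at 0.007195, against 0.290 to 0.709 in the other 27 pairs of arrays. They were counted as 1 sample, and both of their values are printed without an SD. The series text speaks of biological replicates, and the titles number this pair like the others, but cultures are not named. The p-values therefore cover the spread among these arrays, which may in part be technical. The labels do not say whether vehicle RNA was 1 pool, and ratios are tested against 0 without a spread of vehicle. If vehicle was shared, its own deviation would enter all 8 arrays alike. Slide position and total treatment time both differed between single and sequential treatments, and neither can be told apart from the sequence.

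Neuropeptides are made as precursors, cut by prohormone convertases inside dense-core vesicles and released on strong firing, after which they act on G protein-coupled receptors. In cortex and hippocampus most are made by GABAergic interneurons. Somatostatin, neuropeptide Y, vasoactive intestinal peptide and cholecystokinin mark interneuron classes. Cortistatin is a relative of somatostatin that binds its receptors. Corticotropin-releasing hormone drives the stress axis and is also made by hippocampal and cortical interneurons. Tac1 encodes substance P and neurokinin A, and Penk and Pdyn encode the opioid precursors for enkephalins and dynorphins. Transcription of several of these genes is known to follow neuronal activity through cyclic AMP response elements.

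The upstream sequences of 4 genes that stood on different sides of the patterns below are shown with the start region of Sst, whose cyclic AMP response element gave the motif its name. They come from RefSeq on the GRCr8 assembly, 5′ to 3′ on the gene's strand. Of the 9 genes, 6 were in the promoter table (Cort, Sst, Npy, Vip, Tac1 and Pdyn), and Crh, Penk and Cck were not. Cort lies at chr5:164845125-164845374 on the minus strand, Npy at chr4:80211861-80212110 on the plus strand, Tac1 at chr4:36645333-36645582 on the plus strand and Pdyn at chr3:137366504-137366753 on the minus strand, each covering the 250 bases before the annotated start. The Sst stretch is chr11:90461496-90461565 on the plus strand, from 50 bases before the start to 20 after it. Capitals mark the full element TGACGTCA, its shorter core (TGACG, or CGTCA on the other strand) and the TATA motif TATAAA.
Cort: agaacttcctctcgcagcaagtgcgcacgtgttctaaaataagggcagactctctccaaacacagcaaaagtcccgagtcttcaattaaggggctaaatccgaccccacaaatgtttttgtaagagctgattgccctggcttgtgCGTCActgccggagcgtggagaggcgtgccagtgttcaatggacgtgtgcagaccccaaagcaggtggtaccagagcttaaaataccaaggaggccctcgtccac
Npy: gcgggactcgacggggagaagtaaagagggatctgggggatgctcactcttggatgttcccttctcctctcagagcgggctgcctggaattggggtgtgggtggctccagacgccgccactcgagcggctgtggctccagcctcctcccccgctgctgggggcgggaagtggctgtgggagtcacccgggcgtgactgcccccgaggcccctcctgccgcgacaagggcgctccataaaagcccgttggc
Tac1: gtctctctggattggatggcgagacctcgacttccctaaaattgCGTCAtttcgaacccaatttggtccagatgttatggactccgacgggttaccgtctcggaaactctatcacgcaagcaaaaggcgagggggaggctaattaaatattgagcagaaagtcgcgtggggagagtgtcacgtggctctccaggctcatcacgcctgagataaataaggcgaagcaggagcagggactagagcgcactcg
Pdyn: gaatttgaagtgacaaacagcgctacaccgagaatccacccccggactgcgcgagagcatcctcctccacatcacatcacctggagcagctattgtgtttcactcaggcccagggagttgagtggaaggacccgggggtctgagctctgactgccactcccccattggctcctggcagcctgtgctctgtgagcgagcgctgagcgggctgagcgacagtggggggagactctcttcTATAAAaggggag
Sst: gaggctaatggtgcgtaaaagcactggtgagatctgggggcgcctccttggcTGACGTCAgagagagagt

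The full element was found in Sst, starting at base 3 after the annotated start, and in 1.83% of all 33469 promoters of the same 300 bases (250 before and 50 after the start). All positions are counted from the annotated RefSeq start and depend on it. The shorter core, which lies inside the full element, was present in 4 of the 6 (Cort, Sst, Vip and Tac1) and in 21.2% of all promoters. In Cort it began at base -105, in Vip at -97 and in Tac1 at -206. The AP-1 motif, TGAGTCA or TGACTCA, was in 0 of the 6 and in 4.63% of all promoters. TATAAA, looked for on the gene's strand only, was in 2 of the 6 (Vip and Pdyn) and in 8.8% of all promoters. A match of letters is a description of this window and not a measured site.

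In the vehicle channel, 8 of the 9 genes were well above background on all 8 arrays. Raw Cy3 signals, in arbitrary units, were 26170 to 32114 for Sst, 8760 to 9262 for Cck and 4494 to 5393 for the brighter Tac1 probe. They were 1461 to 1968 for the brighter Npy probe, 705.0 to 817.0 for Penk, 556.2 to 706.8 for Cort, 376.5 to 449.5 for the brighter Crh probe and 166.0 to 244.0 for Pdyn. These signals depend on each probe's own efficiency and do not rank the genes. The exception was Vip, at 31.0 to 35.0, which was not well above background in Cy3 on any array. Its Cy5 channel was well above background in at least 1 of its 2 spots on 7 arrays, with signals of 27.2 to 44.8. Both spots were so only on CAT-SKL replicate 2, CAT-SKL+ADDL replicate 1 and ADDL+CAT-SKL replicate 1. The Cy5 signals overlapped those of Cy3, so Vip is not read as present in treated cells only. Its brightest reading was in ADDL+CAT-SKL replicate 1. No fold is read for Vip, since its vehicle signal was not well above background. After background correction with an offset of 50, larger than these raw signals, and normalization, the group mean ratios ran from 1.00 to 1.09. They are not observed signal ratios and are not read as folds. Vip passed the filter on dim probes only through the treated channel.

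**Figure D1:**
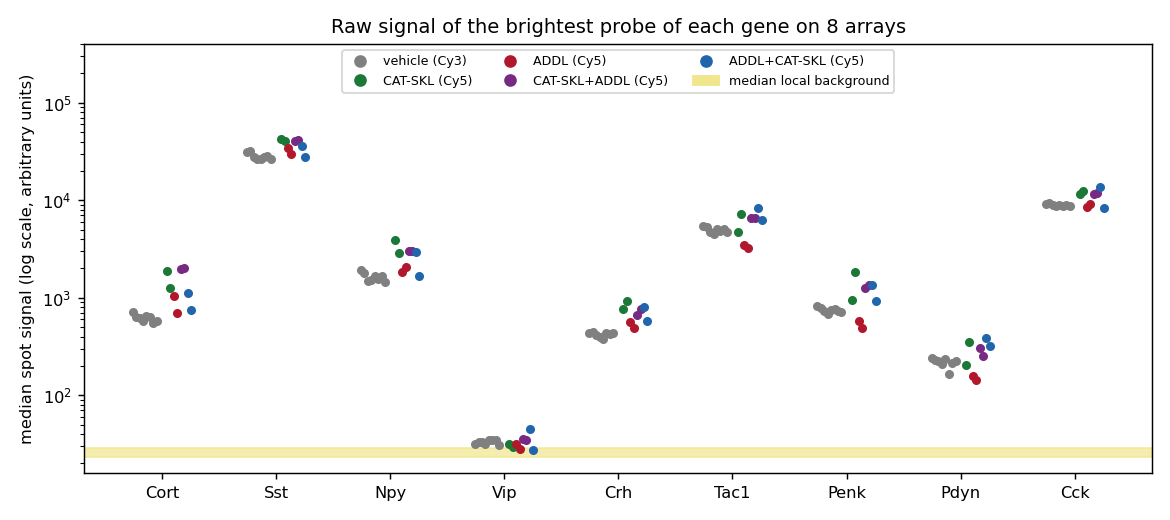
Raw median spot signal (log axis, arbitrary units) of the brightest probe of each of the 9 genes, with the 8 vehicle values in grey and the 8 treated values coloured by group; the band is the range of the median local background. Vip is close to the background band, with vehicle signals of 31.0 to 35.0 that were not well above background on any of the 8 arrays, and probes of different genes are not comparable in level.

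**Figure D2:**
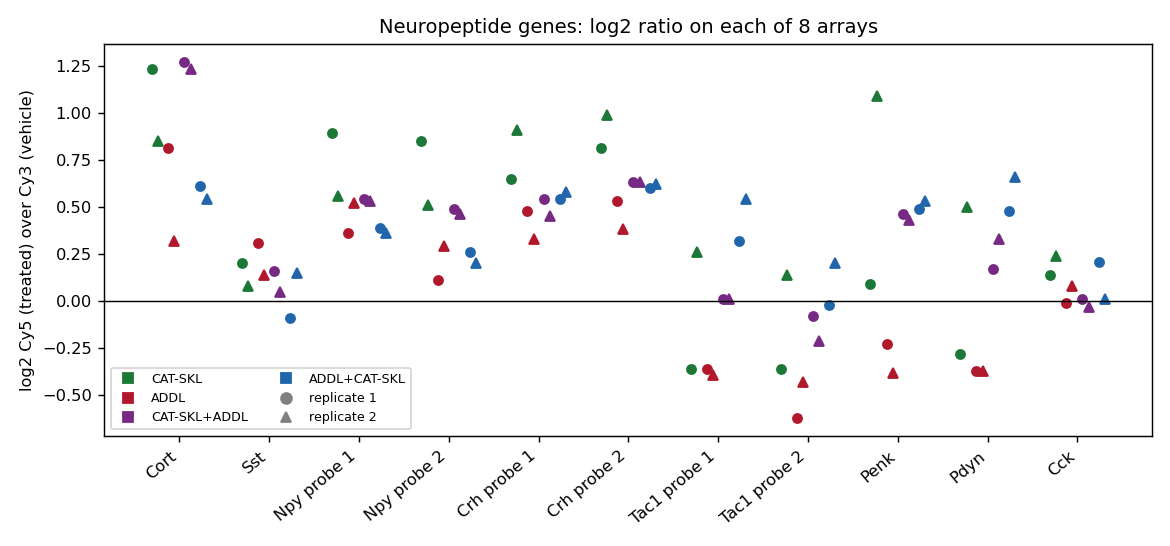
Log2 ratio of treated over vehicle for every probe of the 8 genes measured in both channels, on each array, with colour for the treatment and shape for the replicate. Cort, Npy and Crh lie above 0 on all 8 arrays, Penk, Pdyn and Tac1 lie below 0 on both ADDL arrays, and Sst and Cck stay between -0.09 and 0.31.

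Cort, Npy and Crh were above vehicle on all 8 arrays, which 7.47% of all genes tested were. For Cort the ratios were 1.23 and 0.85 after CAT-SKL, 0.81 and 0.32 after ADDL, 1.27 and 1.23 after CAT-SKL+ADDL, and 0.61 and 0.54 after ADDL+CAT-SKL. These correspond to means of 1.04 ± 0.27 (SD, n = 2), 0.56 ± 0.34, 1.25 and 0.58 ± 0.05, or folds of 2.06, 1.48, 2.38 and 1.49. The CAT-SKL+ADDL arrays and the CAT-SKL arrays overlapped, while both ADDL+CAT-SKL arrays lay below both CAT-SKL arrays and inside the range of the ADDL arrays.

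Npy, an inhibitory peptide that dampens glutamate release, was measured by a probe with 10 spots. Its ratios were 0.89 and 0.56 after CAT-SKL, 0.36 and 0.52 after ADDL, 0.54 and 0.53 after CAT-SKL+ADDL, and 0.39 and 0.36 after ADDL+CAT-SKL. The CAT-SKL arrays were the highest, with a mean of 0.72 ± 0.24 (SD, n = 2), a fold of 1.65, and the means after ADDL and ADDL+CAT-SKL were 0.44 ± 0.11 and 0.38 ± 0.02. Its second probe, with 2 spots, read 0.85 and 0.51, 0.11 and 0.29, 0.49 and 0.46, and 0.26 and 0.20 over the same groups. Both probes were positive on every array, with the second lower after ADDL and ADDL+CAT-SKL.

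Crh read 0.65 and 0.91 after CAT-SKL, 0.48 and 0.33 after ADDL, 0.54 and 0.45 after CAT-SKL+ADDL, and 0.54 and 0.58 after ADDL+CAT-SKL on its brighter probe. The means were 0.78 ± 0.18 (SD, n = 2), 0.41 ± 0.11, 0.49 and 0.56 ± 0.03, folds of 1.72, 1.33, 1.41 and 1.47. A dimmer probe with 10 spots gave 0.81 and 0.99, 0.53 and 0.38, 0.63 and 0.63, and 0.60 and 0.62. On both probes the 2 CAT-SKL arrays were the highest of the 8 and the ADDL arrays held the lowest value. Cort and Npy were higher in CAT-SKL replicate 1 than in replicate 2, and Crh was higher in replicate 2.

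**Figure D3:**
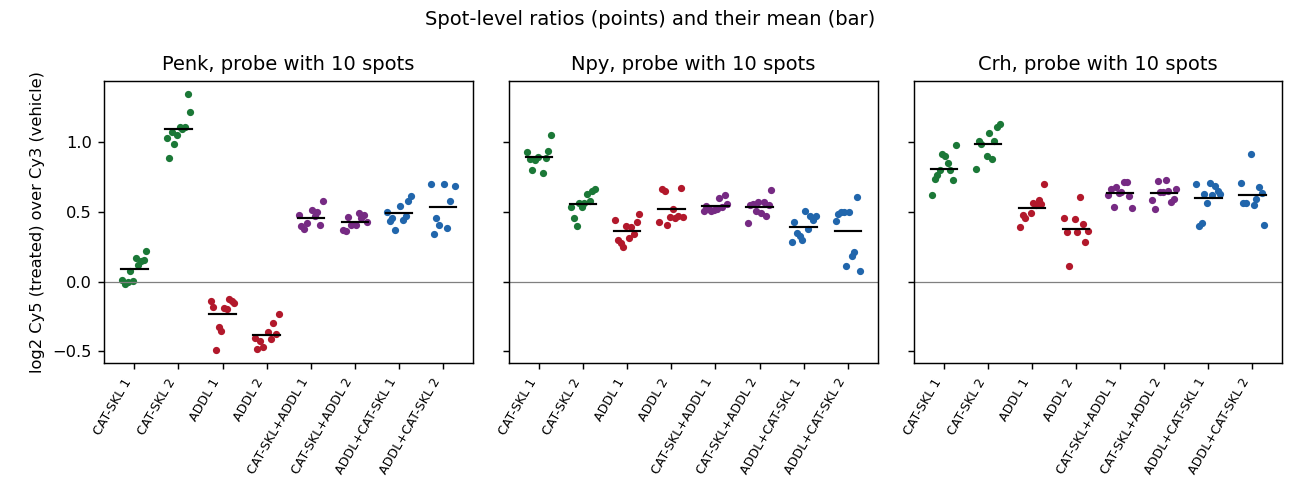
Log2 ratio of each spot (points) and their mean (bar) on each array for the probes of Penk, Npy and Crh that were printed 10 times, outlier-flagged spots left out. For Penk the spots of the 2 CAT-SKL arrays do not overlap, with means of 0.09 and 1.09.

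Penk, Pdyn and Tac1 were below vehicle on both ADDL arrays and above it on both ADDL+CAT-SKL arrays. Of all genes, 31.6% were below 0 on both ADDL arrays, 30.1% were above 0 on both ADDL+CAT-SKL arrays, and 19.1% had both ADDL+CAT-SKL arrays above both ADDL arrays. Penk read -0.23 and -0.38 after ADDL, 0.46 and 0.43 after CAT-SKL+ADDL, and 0.49 and 0.53 after ADDL+CAT-SKL. The means were -0.31 ± 0.11 (SD, n = 2), 0.44 and 0.51 ± 0.03, folds of 0.808, 1.36 and 1.42. Its CAT-SKL arrays disagreed, at 0.09 and 1.09, and in replicate 2 no gene had a higher ratio. The SD of the 10 spots was 0.09 and 0.12 on these arrays, so the gap of 1.00 between the replicates was far wider than the spread of spots.

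Pdyn read -0.37 on both ADDL arrays, 0.17 and 0.33 after CAT-SKL+ADDL, and 0.48 and 0.66 after ADDL+CAT-SKL. Its means were -0.37, 0.25 and 0.57 ± 0.13 (SD, n = 2), folds of 0.774, 1.19 and 1.48. Its CAT-SKL arrays lay on opposite sides of vehicle, at -0.28 and 0.50. Tac1 read -0.36 and -0.39 after ADDL, 0.01 and 0.01 after CAT-SKL+ADDL, and 0.32 and 0.54 after ADDL+CAT-SKL. The mean after ADDL was -0.38 ± 0.02 (SD, n = 2), a fold of 0.769, and after ADDL+CAT-SKL it was 0.43 ± 0.16, a fold of 1.34. Its CAT-SKL arrays also split, at -0.36 and 0.26. A second Tac1 probe, with a single spot, read -0.62 and -0.43 after ADDL but -0.02 and 0.20 after ADDL+CAT-SKL and -0.08 and -0.21 after CAT-SKL+ADDL. The rise above vehicle after ADDL+CAT-SKL was thus seen with 1 Tac1 probe and not with the other. All 3 genes were higher in CAT-SKL replicate 2 than in replicate 1.

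Sst and Cck, the brightest probes of the set, had array ratios between -0.09 and 0.31. Sst read 0.20 and 0.08 after CAT-SKL, 0.31 and 0.14 after ADDL, 0.16 and 0.05 after CAT-SKL+ADDL, and -0.09 and 0.15 after ADDL+CAT-SKL. Cck read 0.14 and 0.24, -0.01 and 0.08, 0.01 and -0.03, and 0.21 and 0.01 over the same groups. On the last array the 2 Cck spots had an SD of 0.26, wider than its ratio. When each array was centred on its median and no loess curve was fitted, Sst came to 0.40 and Cck to 0.39 after CAT-SKL, against 0.14 and 0.19, and limma called both there. Sst also came to 0.43 after CAT-SKL+ADDL under that centring, against 0.11.

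Over the 8 genes measured in both channels, the median log2 ratio was 0.39 after CAT-SKL (range -0.05 to 1.04), 0.12 after ADDL (-0.38 to 0.56), 0.34 after CAT-SKL+ADDL (-0.01 to 1.25) and 0.47 after ADDL+CAT-SKL (0.03 to 0.58). The median over all genes was 0 in each. In the limma fit across all genes (Benjamini-Hochberg adjusted p below 0.05), 3 of the 9 were called after CAT-SKL, namely Cort, Npy and Crh, beside 2.62% of all genes. After ADDL+CAT-SKL 1 of 9 was called, Crh, beside 0.454% of all genes. Crh kept that call under 8 of 18 alternatives, and lost it with the deposited log ratios, offset 16, no filter, the replicate block, or any CAT-SKL, ADDL or ADDL+CAT-SKL array left out. None was called after ADDL or CAT-SKL+ADDL, where limma called 0 of all genes (0% in each), with 4269 and 2543 at an unadjusted p below 0.05. Since the genes were chosen on these contrasts, nothing is read from these counts. Without CAT-SKL replicate 1 none of Cort, Npy and Crh was called after CAT-SKL, and 2 genes were called in all against 588.

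**Figure D4:**
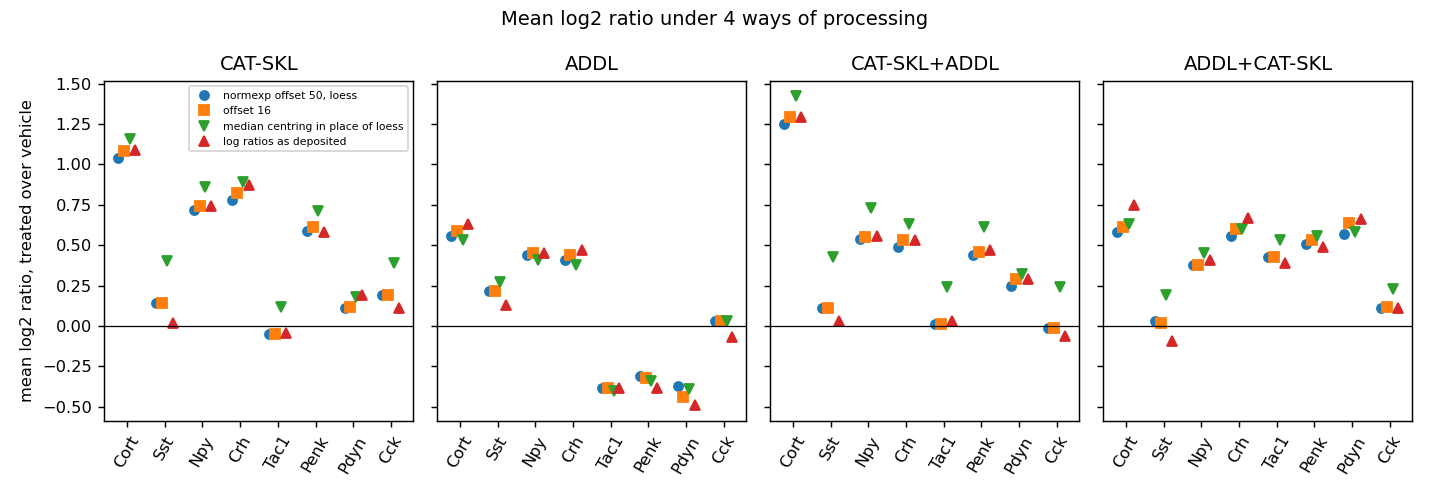
Mean log2 ratio of each of the 8 genes in each treatment under 4 ways of processing (normexp offset 50 with loess, offset 16, median centring in place of loess, and the deposited log ratios). Cort, Npy and Crh stay above 0 and Penk, Pdyn and Tac1 stay below 0 after ADDL in all 4, while Sst and Cck move most with the centring.

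The genes around the peptides were followed in lists that were put together with earlier results of these arrays known. Of the processing and granule genes, 16 of 18 were measured, and limma called 0 of them in any treatment against vehicle. Their medians were -0.02, -0.06, 0 and 0.08 after CAT-SKL, ADDL, CAT-SKL+ADDL and ADDL+CAT-SKL. Scg2, a granin of dense-core vesicles, read -0.30 and -0.31 after ADDL and 0.43 and 0.48 after ADDL+CAT-SKL. Pcsk1, a convertase that cuts the precursors, read -0.59 and -0.32 after CAT-SKL. Pam, which amidates finished peptides, read -0.78 and 0 on the same arrays.

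Of the receptors and binding proteins, 22 of 23 were measured and 0 were called, with medians of 0, -0.04, 0 and 0.02. Crhbp, which binds and holds corticotropin-releasing hormone, read 0.04 and 0.66 after CAT-SKL, -0.27 and -0.24 after ADDL, 0.37 and 0.29 after CAT-SKL+ADDL and 0.54 and 0.11 after ADDL+CAT-SKL. The somatostatin receptor genes Sstr2 and Sstr4 read -0.51 and -0.14, and -0.66 and -0.14, after CAT-SKL. A second Sstr2 probe had a mean of 0 there, against -0.32 for the first. Sstr3 read -0.21 and -0.23 after ADDL and 0.23 and 0.22 after ADDL+CAT-SKL. Its difference between these groups was 0.44 ± 0.07 (SE), with a limma adjusted p of 0.573.

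Of 35 other neuropeptide genes, 31 were measured, and 1 was called, Cartpt after CAT-SKL, a share near the 2.62% of all genes called there. Cartpt, which encodes a peptide tied to feeding and reward, rose by 0.36 ± 0.07 (SE; limma adjusted p = 0.0437), with arrays at 0.30 and 0.43. The list medians were 0.01, -0.02, 0.01 and 0.01. Gal, the galanin precursor, read -0.79 and 0.17 after CAT-SKL and -0.82 and -0.73 after ADDL. Pnoc, the nociceptin precursor, read -0.60 and 0.28, then -0.68 and -0.64. Ucn, a relative of Crh, read -0.15 and 0.63, then -0.67 and -0.66, and 0.30 and 0.60 after ADDL+CAT-SKL. Adcyap1, the PACAP precursor, read -0.45 and 0.08, then -0.53 and -0.59. The limma adjusted p after ADDL was 0.0723 for Adcyap1 and 0.0877 for Gal, above the threshold. Other members lay above vehicle after ADDL. Adm, the precursor of the vasodilator adrenomedullin, read 0.44 and 0.15 after CAT-SKL and 0.35 and 0.77 after ADDL, where its mean was 0.56 ± 0.11 (SE; limma adjusted p = 0.0723). Grp, the gastrin-releasing peptide precursor, read 0.76 and 0.23, then 0.21 and 0.70.

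The activity-regulated genes were measured in 24 of 25 cases. Their median per array was -0.35 and 0.07 after CAT-SKL, -0.29 and -0.30 after ADDL, -0.15 and -0.16 after CAT-SKL+ADDL and 0.03 and 0.11 after ADDL+CAT-SKL. The summed raw Cy5 signal of the list was 21693 to 27657, 17365 to 19238, 26107 to 26823 and 22107 to 32541 in these groups, against 22702 to 25405 in Cy3. These sums were not normalized, so they also carry the brightness of each array. The median Cy5 signal over all spots other than controls was 127.5 and 87.5 on the ADDL+CAT-SKL arrays. Arc, a synaptic protein made on firing, read -0.56 and 0.05 after CAT-SKL and -0.40 and -0.48 after ADDL. Of the 24 genes, 4 had a mean above 0 after CAT-SKL and 5 after ADDL. Fos was among them both times, at 0.20 and 0.28 after CAT-SKL and 0.22 and 0.05 after ADDL. In this list 1 gene was called, Nrn1 after CAT-SKL, which fell by 0.50 on the log2 scale (limma adjusted p = 0.0422). That is 1 of 24, near the 2.62% of all genes called in either direction and the 1.78% called lower. The list median, like Penk, Pdyn and Tac1, was lower on CAT-SKL replicate 1 than on replicate 2 and negative on both ADDL arrays. After CAT-SKL+ADDL they differed. The list median was negative on both arrays there, while Penk read 0.46 and 0.43, Pdyn 0.17 and 0.33 and the brighter Tac1 probe 0.01 and 0.01. The part of the activity-regulated genes in the values of these peptide genes was not tested.

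**Figure D5:**
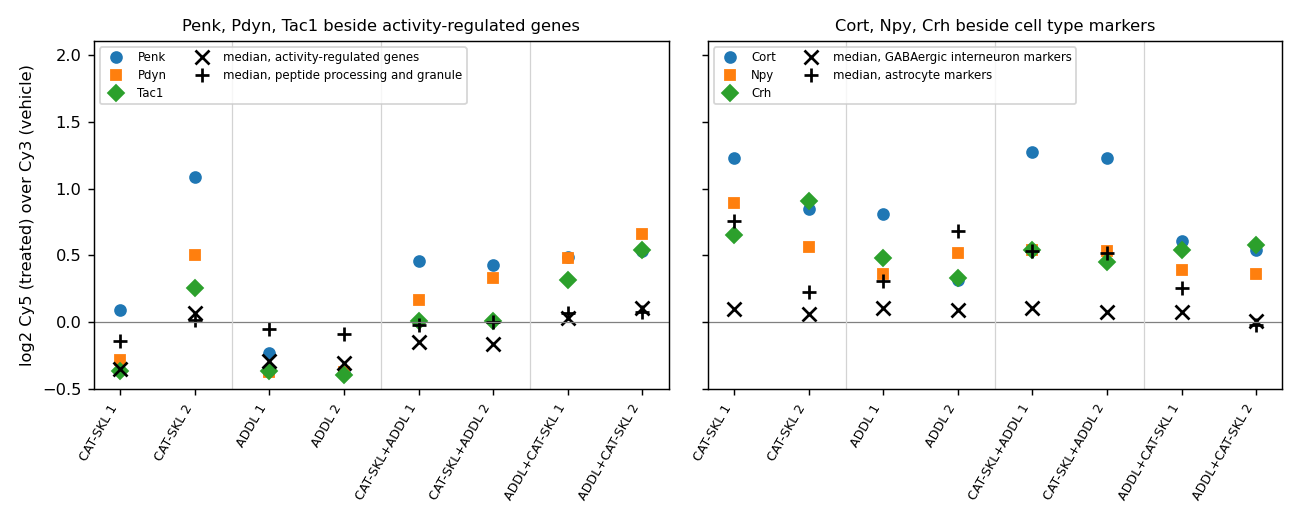
Log2 ratio on each array of Penk, Pdyn and Tac1 with the medians of the activity-regulated and the processing and granule lists (left), and of Cort, Npy and Crh with the medians of the GABAergic and astrocyte marker lists (right). The activity-regulated median is -0.35 and 0.07 on the CAT-SKL arrays, and the astrocyte median is 0.76 and 0.23.

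Markers of the cells that make these peptides, and of other cells in the culture, were read on the same arrays. All 14 pan-neuronal, all 12 glutamatergic and 21 of 24 GABAergic markers measured were well above background in vehicle on all arrays, as were all 14 astrocyte, 11 of 13 oligodendrocyte lineage, 12 of 15 microglial and 4 of 8 vascular markers. Of the 24 GABAergic markers measured, limma called 4 after CAT-SKL, all higher, beside 2.62% of all genes called and 0.837% called higher. Among them were Gad1 (0.56), which makes GABA, Slc32a1 (0.73), which loads it into vesicles, and Calb1 (0.45), a calcium-binding protein. Over the list, the means after CAT-SKL ran from -0.33 to 0.81, with 20 of 24 above 0. The list median was between 0.01 and 0.11 on every array. The GABAergic list's summed Cy5 signal was 11198 to 12391 after CAT-SKL, 9594 to 10611 after ADDL, 13374 to 13558 after CAT-SKL+ADDL and 7979 to 13009 after ADDL+CAT-SKL, with Cy3 at 9450 to 10724. These raw sums also carry the brightness of each array. In such RNA from whole cultures, fewer cells of a type and less RNA per cell cannot be told apart. A second Gad1 probe gave 0.11 after CAT-SKL. The named genes of these lists called after CAT-SKL, Cartpt and Nrn1 included, lost their call with the replicate block, with the deposited log ratios or without CAT-SKL replicate 1. All but Fcer1g also lost it when an ADDL or ADDL+CAT-SKL array was left out.

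Astrocyte markers were measured in 14 of 16 cases, and 0 were called in any treatment. Their median per array was 0.76 and 0.23 after CAT-SKL, 0.31 and 0.68 after ADDL, 0.53 and 0.52 after CAT-SKL+ADDL and 0.26 and -0.02 after ADDL+CAT-SKL. Their summed Cy5 signal, raw and so carrying the brightness of each array, was 21699 to 41423, 21354 to 30172, 39586 to 40310 and 12972 to 25777, with Cy3 at 14651 to 16648. Oligodendrocyte lineage markers had 3 of 13 called after CAT-SKL (Pdgfra, Olig2 and Sox10), and microglial markers 1 of 15 (Fcer1g), all higher, beside 2.62% of all genes called and 0.837% called higher. A second Olig2 probe had a mean of 0.01, against 0.50 for the first. Of the 12 glutamatergic markers measured, 1 was called after CAT-SKL, Neurod2, which fell by 0.34, and 1 after ADDL+CAT-SKL, Slc17a6, which rose by 0.41. Their list medians were 0.03 and -0.06, with 7 and 5 of the 12 above 0. Of the 14 pan-neuronal markers, 1 was called after ADDL+CAT-SKL, Ncam1, which fell by 0.40. The list median there was 0.01, with 8 of the 14 above 0. The share of all genes called was 2.62% after CAT-SKL and 0.454% after ADDL+CAT-SKL. Both calls after ADDL+CAT-SKL were lost under the settings that ended the call of Crh there, and that of Ncam1 also with median centring. The part of these markers in the values of the peptide genes was not tested.

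The genes whose pattern over the 8 arrays was most like a member's were found by the root mean square difference in log2 ratio, for members with a mean of at least 0.5 in size in some treatment. For Npy the nearest were Gad1, at a difference of 0.12, Ctsh (0.15) and Tubb2a (0.15). The likeness to Gad1 rests on its brighter probe, with means of 0.56, 0.51, 0.63 and 0.33. In the same order (CAT-SKL, ADDL, CAT-SKL+ADDL, ADDL+CAT-SKL) the second Gad1 probe had 0.11, -0.04, 0.03 and 0.07. For Cort they included Cyba (0.30) and Vsir (0.32), and for Crh they were Rac2 (0.15), Pno1 (0.18) and Adgre1 (0.21). Penk was nearest to Calb1 (0.23), Crhbp (0.23) and Amy2a3 (0.28). Pdyn was nearest to Scg2 (0.15), Adamts1 (0.16) and Cbln2 (0.16), and Scg2 shared its split between the CAT-SKL arrays, at -0.27 and 0.29.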

How the data were processed

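Each deposited scanner file gives, for both channels, the median intensity of a spot and that of its local background and, per the file headers, a log10 ratio of Cy5 over Cy3 made by Agilent Feature Extraction 11.5 (version per the submitters' processing notes). In the deposited series table these log10 values recur, with a largest difference of 0.00500 and a median of 0 on each array. Spot flags, named per the file headers, are 0 or 1, and the saturation flag was set on 0 spots. Depth does not apply to arrays, and their number, 8, limits the precision.

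From the deposited intensity values, log2 ratios were computed with limma 3.58.1 under R 4.3.3: normexp background correction with offset 50, then loess within each array with control spots at weight 0. Spots with outlier flags were then left out and the spots of a probe averaged. A probe was tested where any of its spots carried the above-background flag, in Cy5 or Cy3, on 2 or more of the 8 arrays (25296 probes with a value on every array, and 67 more without). A gene stood by its brightest tested probe. Symbols came from RefSeq (GRCr8), which named 17998 of 30367 probes. Groups were fitted with lmFit and eBayes over 7 samples (3 residual and 5.05 prior degrees of freedom), with Benjamini-Hochberg adjustment and a threshold of 0.05. The fit was tested on simulated data.

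The members and the gene lists were chosen with earlier results of these data known. The rule on spots in the filter was set after a stricter version, asking for a share of at least 0.5 of the spots, had been run and its number of tested probes seen to differ from an earlier analysis of these data. A loess with flagged spots also at weight 0 was tried for the same reason and is given as an alternative, since the design fixed control spots only. Named genes are the members, in each list of related genes those with the smallest p in each comparison or called, called cell type markers, and the 3 genes nearest to a member. A gene that these rules name is not reported here. Replicate numbers did not pair the arrays. The cause of differences between CAT-SKL replicates was not tested.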

Additional observations from a re-analysis of the deposited data

Results flagged for a closer look

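Several differences were flagged because both arrays of 1 treatment lay above vehicle and both ADDL arrays below it. In the limma fit across all genes 0 genes were called between ADDL+CAT-SKL and ADDL or between CAT-SKL+ADDL and ADDL, these included, with smallest adjusted p of 0.573 and 1.00 over all genes and 1885 and 876 genes at an unadjusted p below 0.05. The difference of Penk between CAT-SKL and ADDL was not tested. Lying above both ADDL arrays was common. Of all genes, 18.3% did so on both CAT-SKL arrays, 22.4% on both CAT-SKL+ADDL arrays and 19.1% on both ADDL+CAT-SKL arrays. The members were chosen with these values known, so nothing is read from the flags. For Penk the mean log2 ratio exceeded that after ADDL by 0.90 after CAT-SKL, by 0.75 after CAT-SKL+ADDL and by 0.82 after ADDL+CAT-SKL. For Pdyn the differences were 0.62 after CAT-SKL+ADDL and 0.94 after ADDL+CAT-SKL. For Tac1 they were 0.39 after CAT-SKL+ADDL, where the arrays read 0.01 and 0.01, and 0.81 after ADDL+CAT-SKL. The single-spot Tac1 probe was below vehicle on both CAT-SKL+ADDL arrays and split over the ADDL+CAT-SKL arrays.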

How the results depend on the processing

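Among 8 members, 4 treatments and 18 alternatives, no called value changed sign. Some values that were not called did, keeping their sign under 16 or 17 of 18 alternatives. They were Cck after ADDL and CAT-SKL+ADDL and Sst after ADDL+CAT-SKL. Pdyn after CAT-SKL and Tac1 after CAT-SKL and CAT-SKL+ADDL were the others. Many alternatives cannot move a treatment's mean, such as leaving out an array of another group, the replicate block or 8 separate samples. The counts of kept signs are therefore no measure of how stable the values are. The following 2 choices were tried after counts had been seen. A loess with flagged spots at weight 0 called 564 genes after CAT-SKL (176 higher, 388 lower) and 100 after ADDL+CAT-SKL, against 588 (188 higher, 400 lower) and 102, and asking for a share of at least 0.5 of a probe's spots above background called 637 and 107; Cort, Npy and Crh were called after CAT-SKL under both. The counts of calls moved more under other settings. With 8 separate samples they were 1820 after CAT-SKL, 975 after ADDL, 2322 after CAT-SKL+ADDL and 886 after ADDL+CAT-SKL. With median centring they were 1819 (1417 higher, 402 lower), 430, 325 and 374 (297 higher, 77 lower, against 54 and 48), and 30 between ADDL+CAT-SKL and ADDL. With the deposited log ratios they were 0 after CAT-SKL and 0 after ADDL+CAT-SKL, with 4235 and 2880 at an unadjusted p below 0.05 in limma. Offset 16 gave 128 and 0, and no filter gave 275 and 0. With the replicate number as a block they were 6 and 0, and Npy and Crh were no longer called; same-numbered arrays correlated between -0.202 and 0.078 in their deviations from group means, so the numbers were not taken to pair them. Leaving out 1 array gave 2 to 588 calls after CAT-SKL, 0 to 329 after ADDL, 0 to 5 after CAT-SKL+ADDL, 0 to 102 after ADDL+CAT-SKL, 0 to 13 between ADDL+CAT-SKL and ADDL and 0 to 3 between CAT-SKL+ADDL and ADDL. The count after CAT-SKL was 2 without CAT-SKL replicate 1, 387 without CAT-SKL replicate 2, 53 when an ADDL array was left out and 226 when an ADDL+CAT-SKL array was. Crh after ADDL+CAT-SKL was called under 8 of 18 alternatives. With 1 array left in a group, that sample is assumed to vary like the others. The cause of these shifts was not tested. Vip had no measurable level in vehicle.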
